A study of Physcomitrium patens with 5 samples.

Results

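The 6 genes described here make parts of the machinery that copies genes into RNA and splices the RNA, in the moss Physcomitrium patens. The tissue was the gametophore, its leafy shoot. They were chosen by gene identifier from the authors' deposited table of differentially methylated regions, out of 225 genes in all, by their orthology definitions. The definitions are small nuclear ribonucleoprotein D3 (Pp1s33_44V6), splicing factor 3B subunit 3 (SF3B3, Pp1s197_41V6), the serine/threonine-protein kinase PRP4 (Pp1s250_28V6), the ATP-dependent RNA helicases DDX42 (Pp1s358_35V6) and DDX5/DBP2 (Pp1s35_3V6), and RPB1 (Pp1s208_15V6), a subunit of RNA polymerase II. Methylation of DNA was read by bisulfite sequencing, in which unmethylated cytosines are converted and read as thymines while methylated cytosines are still read as cytosines. There were 5 libraries, 1 each from moderately dehydrated, severely dehydrated, partially rehydrated, fully rehydrated and hydrated plants. The labels give no strain, age or duration, and name the gametophore as the tissue of all 5 libraries. The moderately dehydrated plants are called mild in another label.

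RNA polymerase II transcribes the protein-coding genes, and the spliceosome removes introns from the transcripts while they are being made. The spliceosome is built from small nuclear ribonucleoproteins, with kinases and RNA helicases that drive its rearrangements. In plants, DNA methylation near a gene's start often accompanies low transcription, and in mosses most methylation lies in transposable elements while gene bodies carry little. Transcripts were not measured here, so nothing below says whether these genes were more or less expressed.

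Each of the 6 genes had 1 listed region, which gave 6 member regions among the 224 distinct regions of the table. The comparisons with the moderately dehydrated and the fully rehydrated library each held 3 of them. The genes had 0 listed regions in severe dehydration and 0 in partial rehydration, which held only 22 and 40 of the 224 regions, so nothing is read from their absence there. None of the genes was listed in more than 1 comparison. A region that is not listed is not shown to be unchanged, because levels outside the list were not analysed here. All 4 comparisons share the same hydrated library. With 1 library per state, no difference could be set against replicate spread and no test was made. The depth behind each level is unknown.

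In moderate dehydration, 1 of the 3 genes, small nuclear ribonucleoprotein D3, had higher methylation than the hydrated library, and DDX42 and RPB1 had lower methylation. Of all 30 regions listed in that comparison, 70.0% were higher and 30.0% lower. In full rehydration, 1 of the 3 genes, SF3B3, was higher, and PRP4 and DDX5 were lower. Of all 132 regions listed there, 56.1% were higher and 43.9% lower. Over both comparisons, 2 regions were higher and 4 lower, and nothing is read from a split of 6. Over all 4 comparisons, which include the 2 without these genes, 50.0% of the 224 regions were higher and 50.0% lower. All 6 differed at least 4-fold in the deposited values, as did 34.8% of the 224 regions (40.0% of those in moderate dehydration and 37.9% in full rehydration). Every listed region of any gene differed at least 2-fold.

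**Figure D1:**
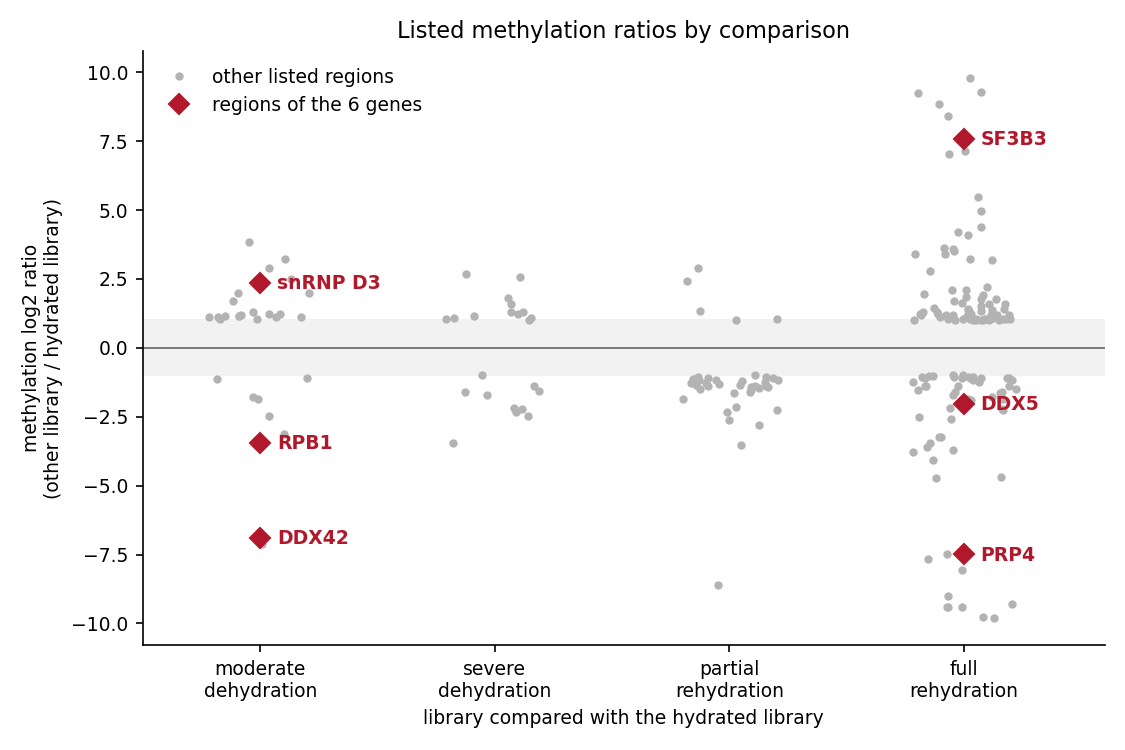
The vertical axis is the deposited methylation log2 ratio of each library over the hydrated library, and the horizontal axis is the comparison. Each grey point is a listed region, red diamonds are the regions of the 6 genes, and the shaded band is the range in which nothing was listed. The diamonds lie at 2.36, -3.46 and -6.91 in moderate dehydration and at 7.57, -2.04 and -7.49 in full rehydration.

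The levels behind a ratio could be taken back for 4 of the 6 regions, against 82 of 224 in the whole table (36.6%). Every deposited ratio equalled the log2 of a quotient of 2 whole-percent levels, with a level of 0 replaced by 0.001 as a fraction. The deposited values are ratios, so every level below, a 0 included, was taken back from a ratio. A level is printed where only 1 such pair matched the ratio, and otherwise all pairs are described. Every region counted with a level of 0 had a single pair. Such regions were 3 of those 4 and 22 of those 82, so nothing is read from the higher share among the 6. A positive log2 ratio is read as higher than in the hydrated library, which the table does not state. On 2 scaffolds, 1 region with the same start and end appeared in 2 comparisons, and a common hydrated level existed only with that library as denominator (6 and 2 possible levels, against 0 and 0 as numerator). The only error that could be given is that of rounding levels to whole percents, taken as 0.5 points either way. Scaffold positions are as the authors' table gives them, and the genome build is not given in the sources used here.

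Among the spliceosome components, D3 is a core protein of the ring that binds the small nuclear RNAs. Its region lay in the 2 kb downstream of Pp1s33_44V6, on scaffold 33 from 306367 to 306576. Pairs of levels that give its ratio were 41% in the moderately dehydrated library with 8% in the hydrated library, and 82% with 16%. Methylation was thus 33 or 66 percentage points higher, from a low hydrated level under either pair. The authors' deposited table gave a log2 ratio of 2.36, a 5.12-fold difference. Rounding of the levels allows 2.25 to 2.47 for the first pair and 2.30 to 2.41 for the other. This was the 5th largest of 21 higher ratios in the comparison.

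SF3B3 belongs to the complex that recognises the branch site of introns at an early step of splicing. Its region lay upstream of Pp1s197_41V6, on scaffold 197 from 185196 to 185676. The recovered level was 19% in the fully rehydrated library and 0 in the hydrated library. The fully rehydrated library was thus 19 percentage points higher, and no fold is given against a level of 0. The authors' deposited table lists a log2 ratio of 7.57, a value set by the 0.001 in place of 0. Of the 8 full rehydration regions with a hydrated level of 0, levels in the fully rehydrated library ran from 13% to 89%, with a median of 40.0%, so SF3B3 stood near the low end.

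PRP4, known in fission yeast and human cells as a kinase that phosphorylates splicing factors, was the only one of the 6 genes with a region in the gene body. In full rehydration, 17.0% of the 147 gene and region entries lay in bodies, 18 of them higher and 7 lower. The region lay on scaffold 250 from 312357 to 312904. Its recovered level was 0 in the fully rehydrated library and 18% in the hydrated library, a difference of -18 percentage points. The authors' deposited table gave a log2 ratio of -7.49, again a value that depends on the replacement of 0. Among the 11 regions whose recovered level was 0 after full rehydration, hydrated levels ran from 18% to 90%, with a median of 63%. PRP4 thus stood at the lowest of these hydrated levels, together with Pp1s271_81V6.

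Both RNA helicases are members of the DEAD-box family, which unwind or remodel RNA. Methylation was lower than in the hydrated library for DDX42 in moderate dehydration and for DDX5 in full rehydration. DDX42 is known in human cells as a partner of the branch-site complex that contains SF3B3. Its region lay downstream of Pp1s358_35V6, on scaffold 358 from 214143 to 214344. The recovered level was 0 in the moderately dehydrated library and 12% in the hydrated library. The difference of -12 percentage points was the smallest in size of the 22 regions in the table with a level of 0. A region whose levels were not recovered may differ by less. The DDX42 ratio, -6.91 on the log2 scale in the authors' deposited table, was the 2nd largest in size of the 30 in moderate dehydration. Of those 30 regions, 6.67% had a level of 0.

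DDX5, whose budding yeast counterpart is DBP2, acts in transcription and in the processing of messenger RNA. Its region lay upstream of Pp1s35_3V6, on scaffold 35 from 60931 to 61185. The level was 17% in the fully rehydrated library and 70% in the hydrated library. The difference was -53 percentage points, or 4.12-fold lower after full rehydration, with both levels above 0. The authors' deposited table gave a log2 ratio of -2.04, and rounding of the levels allows -2.10 to -1.99. Whether it passes 4-fold therefore rests on rounding. Its difference ranked 22nd of 63 among the full rehydration regions with recovered levels, and its ratio ranked 30th of the same 63. Among all 132 full rehydration regions its ratio ranked 50th in size, and among the 58 lower ones 26th.

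RPB1, the largest subunit of RNA polymerase II, carries the catalytic centre and the tail to which RNA processing factors bind. Its region lay upstream of Pp1s208_15V6, on scaffold 208 from 43335 to 43553. The level in the moderately dehydrated library was 11.0-fold lower than in the hydrated library, and 9 pairs of whole percents give this quotient. They run from 1% in the moderately dehydrated library with 11% in the hydrated library to 9% with 99%. The difference thus lies between -90 and -10 percentage points, and the table does not tell where. What all pairs share is a level of at most 9% after moderate dehydration. The authors' deposited table gave a log2 ratio of -3.46, for which rounding allows -4.52 to -2.81 with the lowest pair and -3.55 to -3.37 with the highest. It was the 3rd largest in size of the 9 lower ratios.

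**Figure D2:**
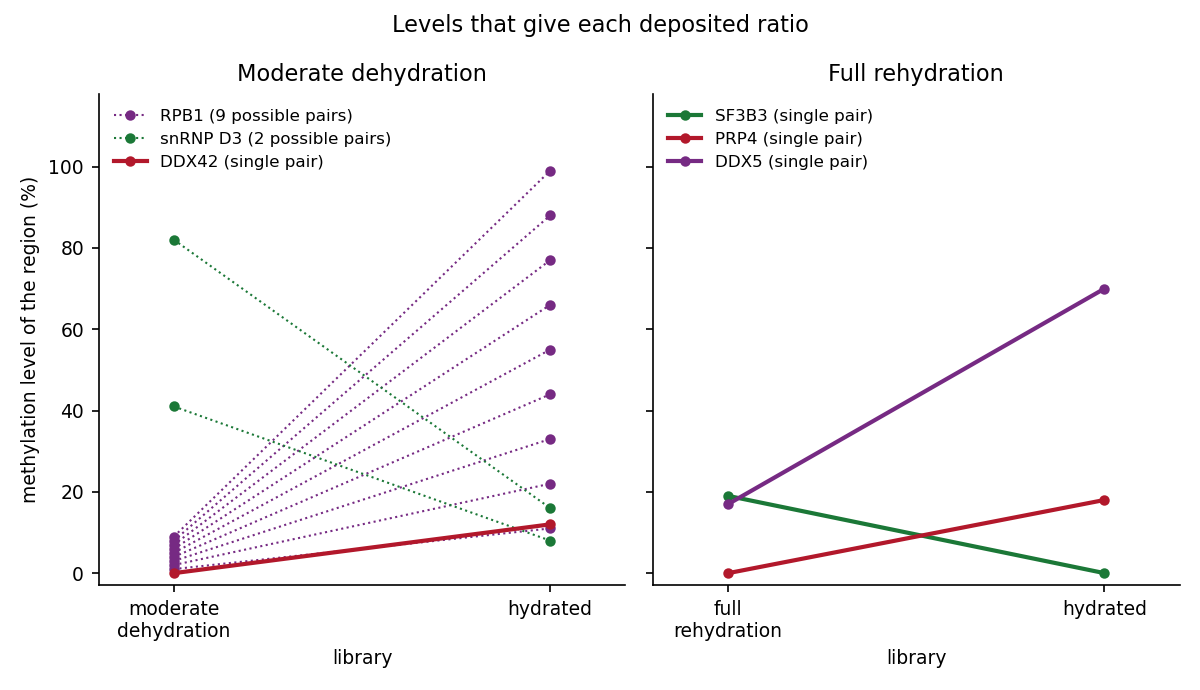
The vertical axis is the methylation level of a region in percent, with the other library at the left and the hydrated library at the right of each panel. Thick lines are regions with a single possible pair of levels, and dotted lines are all pairs possible for RPB1 and small nuclear ribonucleoprotein D3. DDX5 (17% against 70%) spans the widest gap of the genes with a single pair, and DDX42, PRP4 and SF3B3 each have an end at 0.

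A recovered level of 0 thus occurred in 3 of the 6 regions, against 22 of 224 in the table (9.82%). In full rehydration these were SF3B3 and PRP4, where 14.4% of regions had such a level. The differences of DDX42, PRP4 and SF3B3 were -12, -18 and 19 percentage points. All of them were below 26 points in size, the smallest difference among the 60 regions with both recovered levels above 0 (median 45.0). The recovery rule admits no such region below 26 points, so nothing is read from either value. The 22 regions with a level of 0 had a median difference of 42.5 points, and DDX42, PRP4 and SF3B3 ranked 1st, 5th and 7th among them from the smallest. Ordered by ratio, these 3 genes stood at the top of the 6, and ordered by percentage points they stood below DDX5.

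**Figure D3:**
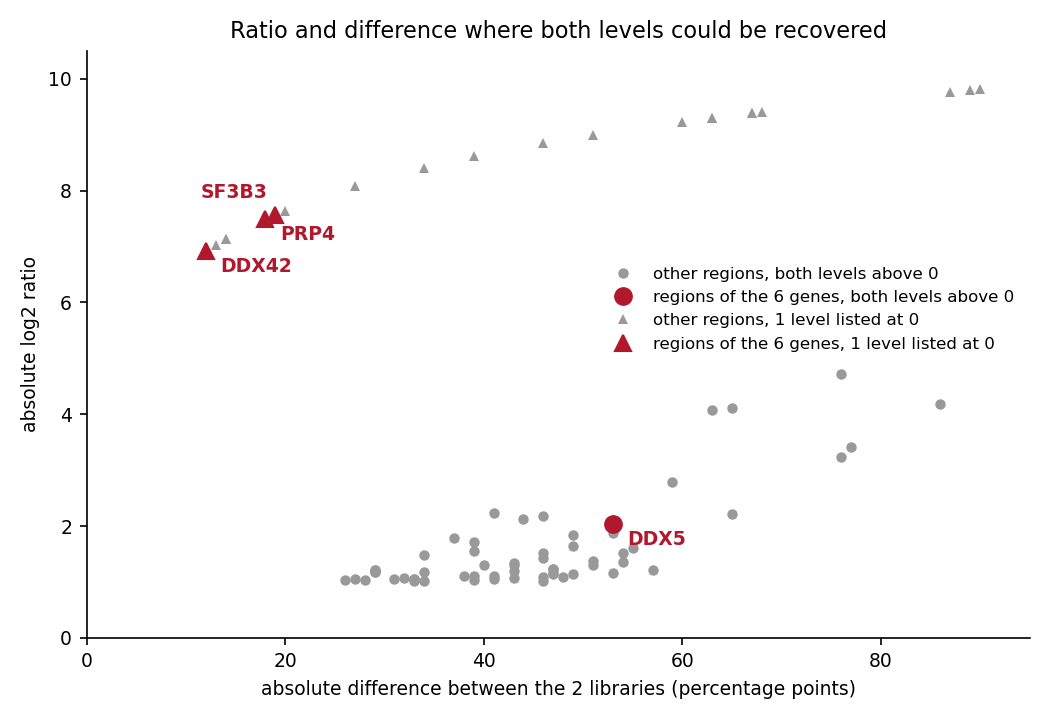
The horizontal axis is the absolute difference in percentage points and the vertical axis the absolute log2 ratio, for the 82 regions with recovered levels. Triangles, labelled as listed at 0, have 1 recovered level of 0, circles have none, and red marks are the regions of the 6 genes. The recovery rule admits no circle below 26 points. DDX42, PRP4 and SF3B3 lie at the left end of the triangles, at 12, 18 and 19 points, and DDX5 lies among the circles at 53 points.

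All 3 regions of moderate dehydration were also assigned to a neighbouring gene, while the 3 of full rehydration were assigned to 1 gene each. In the table, 26.7% of the moderate dehydration regions and 9.85% of the full rehydration regions were assigned to more than 1 gene. The D3 region, downstream of its gene, was upstream of Pp1s33_45V6. The RPB1 region was upstream of both RPB1 and Pp1s208_16V6, and the DDX42 region was downstream of both DDX42 and Pp1s358_36V6. These neighbours had no annotation in the table. For these 3 genes the table therefore does not tell which of the neighbours a difference in methylation belongs to.

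The regions in moderate dehydration were short. The DDX42 region spanned 202 bases, the D3 region 210 and the RPB1 region 219, ranking 30, 28 and 27 from the longest of the 30 regions, whose median was 302.5 bases. In full rehydration, the PRP4 region spanned 548 bases and the SF3B3 region 481, ranking 15 and 26 of 132, and the DDX5 region spanned 255 and ranked 99. The median there was 355.0 bases. The number of cytosines and reads in each region was not analysed here.

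Some definitions carry a second orthology identifier, which leaves the identity of the gene unsettled. This held for RPB1 (K03006, with K02999) and PRP4 (K08827, with K12811), or 2 of the 6 genes, against 22 of the 86 definitions in the table. The ontology terms of Pp1s208_15V6 included RNA polymerase activity, and those of Pp1s250_28V6 included phosphorylation, protein kinase activity and adenyl ribonucleotide binding. DDX42 and DDX5 shared the terms for coupled ATPase activity and adenyl ribonucleotide binding. D3, SF3B3, DDX42 and DDX5 had no process term.

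A wider list of RNA processing and transcription genes, matched by keyword in the definition or ontology terms, held 17 other genes. Of these 5 were listed as higher only and 12 as lower only, against 103 and 117 of the 225 genes. The list is mostly not splicing: 10 genes matched through transcription and 5 are ribosomal protein genes. Among those 10, Pp1s214_25V6 and Pp1s42_115V6 are defined as axonemal dynein heavy chains, and both were listed as lower only. In full rehydration, 2 regions of the list were higher and 8 lower, with a median log2 ratio of -1.99. These regions came from 8 genes. For all regions listed there, 74 higher and 58 lower, the median was 1.03. Every listed region differed at least 2-fold, so a median falls on the side with more regions. The gap between medians is therefore not read as a shift, here or in moderate dehydration. Overlapping lower regions of Pp1s217_9V6 (-9.39 and -3.24) and of Pp1s47_73V6 were each counted separately. In moderate dehydration 2 regions of the list were higher and 1 lower, with a median of 1.70 against 1.13. The 2 higher regions overlapped and belonged to 1 gene, Pp1s119_107V6. The list had 4 regions in partial rehydration, all lower, where 35 of all 40 regions were lower. It had 2 higher and 2 lower in severe dehydration, where 12 of all 22 were higher. By definition alone the list held 1 gene, an ethylene-responsive transcription factor (Pp1s11_198V6), at -1.14 downstream in moderate dehydration in the authors' deposited table. Only 1 gene matched through RNA processing, the undefined Pp1s47_73V6, named after its values were seen. It had overlapping downstream regions at -1.09 and -1.08 in full rehydration in the authors' deposited table, and for the second of these the levels were 43% in the fully rehydrated and 91% in the hydrated library.

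For each of the 6 genes, the annotated gene with the closest ratio in the same comparison, gene part and direction was looked up, a likeness over 1 comparison. In the authors' deposited table the closest to DDX5 was an auxin response factor gene (Pp1s86_4V6) at -2.21, a distance of 0.16 on the log2 scale, out of 19 candidates. RPB1 was closest to phosphatidylserine synthase 2 (Pp1s159_14V6) at -3.12 in the authors' deposited table, a distance of 0.34 out of 3 candidates. D3 was closest to eIF-3 subunit 1 (Pp1s201_55V6) at 2.91 in the authors' deposited table, a distance of 0.55 out of 6. For SF3B3 the closest of 14 candidates was a cyclin-dependent kinase gene (Pp1s214_1V6) at 8.85 in the authors' deposited table, a distance of 1.28, which also had a hydrated level of 0. DDX42 had 2 annotated candidates, the closer being a benzodiazepine receptor gene (Pp1s149_274V6) at a distance of 5.07. PRP4 had 1, an FLS2-like receptor kinase gene (Pp1s783_2V6), at a distance of 6.26. These 2 distances depend on the 0.001 put in place of 0, because DDX42 and PRP4 had a level of 0 and the 2 closest genes did not. In percentage points the Pp1s783_2V6 region differed by 47 in size and the PRP4 region by 18. With genes of no annotation admitted, a choice made after the values were seen, the closest to PRP4 was the body of Pp1s267_83V6 at -7.64 in the authors' deposited table, a distance of 0.15. The closest to SF3B3 was then Pp1s83_3V6 at 7.02 in the authors' deposited table, a distance of 0.55, and the closest genes of the other 4 were the same.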

How the data were processed

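Per the labels' protocols, gametophore DNA was sonicated, ligated to methylated adaptors, bisulfite-converted, amplified and size-selected. The authors' deposited table gives, per the file headers, the gene part (2 kb upstream, body or 2 kb downstream), start, end, log2 methylation ratio and direction of each region. The sources used here name no aligner, caller, threshold, cytosine context, coverage or build. Regions assigned to several genes were counted once per comparison. Whole-percent levels from 0 to 100 were searched for pairs giving each ratio (relative tolerance 1e-09), a search checked on simulated pairs. Ranks and shares were computed with Python 3.11.15 and describe the list only. Shares among listed regions have no count of regions examined by the authors behind them. The 6 genes, the keyword list and the naming rule (all 6 genes, keyword genes by definition, closest-ratio genes, and genes sharing a region) were chosen with earlier results of these data known. The reference gene table matched 0 of the 6 identifiers. Alternatives were a 4-fold minimum, leaving out levels of 0, counting every entry, merging overlaps, a tolerance of 1e-06 and definition-only keywords.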

Additional observations from a re-analysis of the deposited data

How the results depend on the processing

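With regions that have a level of 0 left out, 1 member region was higher and 2 were lower than in the hydrated library, against 2 and 4 with them, because SF3B3, PRP4 and DDX42 then drop out. With keywords matched in definitions only, the wider list held 0 genes higher and 1 lower, against 5 and 12. A 4-fold minimum could move neither count of member regions, because all 6 passed it in the deposited values. The wider tolerance left 4 of them with a single pair of levels. With every entry counted, overlaps merged, a 4-fold minimum or levels of 0 left out, the share of listed regions that was higher ran from 58.3% to 75.0% in moderate dehydration, against 70.0% as reported. In full rehydration it ran from 48.0% to 58.4%, against 56.1%, and with the 4-fold minimum (48.0%) most listed regions were lower instead of higher. No paired analysis was possible because each state had 1 library, and no replicate could be left out. Depth is unknown, so how far counting error reaches into any level is unknown too.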

Other observations

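A further gene linked to splicing, found after the values were seen and matched by no keyword, stood beside PRP4 in full rehydration. It is defined as apoptotic chromatin condensation inducer in the nucleus (Pp1s271_81V6), which in human cells joins the protein complex left on spliced transcripts. Its upstream region lay on scaffold 271, from 479895 to 480293. The recovered level was 0 in the fully rehydrated library and 18% in the hydrated library, the same pair of levels as in the PRP4 body. The gene for cytoplasmic tRNA 2-thiolation protein 2 (Pp1s34_86V6), which modifies transfer RNA, had 35% in the fully rehydrated library and 82% in the hydrated library upstream, also chosen after its values were seen.

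On the scaffolds of the 6 genes, other listed regions lay far away. The nearest to the DDX42 region was 66790 bases from it, at Pp1s358_21V6, with a log2 ratio of -2.81 in partial rehydration in the authors' deposited table. The nearest to the RPB1 region was 179866 bases from it, at Pp1s208_62V6, at -1.34 in partial rehydration in the authors' deposited table. Scaffolds 33, 35, 197 and 250 held no further listed region.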
